A study of Mus musculus with 35 samples.

Results

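The comparison described here was that of brain tissue from injured mice treated with mesenchymal stromal cells (MSCs) and taken 3 weeks post-injury (wpi) with that of sham mice, across all genes measured. It used 10 of the 35 libraries of the study, 5 of the MSC group at 3 wpi (MSC) and 5 of the Sham group, chosen by their labels, and it asked how the injured and treated hemisphere differed from an uninjured one and how much of that difference rested on MSC mouse 4. All mice were male C57BL/6N animals (C57BL/6NCrl in the labels). MSC mice had a closed head injury, an impact on the intact skull, and some days later an injection of unmodified MSCs into the left hippocampus. These cells were bought as primary cells from C57BL/6N mice and were used at a low passage, so donor and host were of the same strain. The paper's methods describe sham procedures as every step but the impact. For its molecular measurements the paper gives sham mice as having neither an impact nor an injection, and the series design calls them naïve. The comparison therefore combines the impact, the needle and the cells, and also the surgery if the sham mice were naïve. These cannot be told apart in it. Injured mice injected with phosphate-buffered saline (PBS) and taken at 3 wpi serve below as a second control, which shared the impact and the needle. They are 4 of 5 such libraries, since another was excluded by the study for unusual counts and is not analysed here. Sham mice 0 and 1 were taken at 1 week and Sham mice 2 to 4 at 3 weeks. Each library came from 1 mouse, and the replicate numbers are those of the labels.

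An impact on the head breaks down brain cells and vessels, and the products are sensed by microglia, the resident macrophages of the brain, and by astrocytes. Microglia then leave their resting state and make complement, cathepsins and antigen-presenting proteins, and astrocytes enlarge and make more of the filament protein GFAP. Leukocytes can enter from the blood, among them T cells, which recognise peptides shown to them on major histocompatibility complex (MHC) proteins and which release interferon-gamma. MSCs are tissue-derived cells that have been studied as a treatment because they release factors that act on immune cells.

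Relative to Sham, 191 genes were higher in MSC and 6 were lower, of 17131 genes with enough counts to be tested. These are calls at a Benjamini-Hochberg adjusted p under 0.05 in edgeR's quasi-likelihood test, two-sided, and they make up 1.11% and 0.0350% of the genes tested. Without adjustment, 1303 genes were higher (7.61%) and 583 lower (3.40%) at a p under 0.05, so the difference was mostly one of higher genes. The median log2 fold change of the 191 genes was 0.83, a median over genes that were selected for being higher, and that of all genes tested was 0.0027. At a log2 fold change of at least 1, 78 genes were higher and 0 lower. Of the 191 genes, 99 were members of the immune, glial, metabolic and neuronal lists described below and 92 were in none of them. When MSC mouse 4 was left out, 68 genes were called higher (0.397% of those tested) and 2 lower, and the values without this mouse are given beside most groups of genes.

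The samples were labelled as left cortex, while the extraction protocol describes a block of tissue around the injection site in the left hemisphere, which may hold deeper structures. Neuron markers were detected in every library, and Slc17a7, the vesicular glutamate transporter of cortical and hippocampal excitatory neurons, was at 1076, 1120.1, 903, 953 and 931 CPM in MSC mice 0 to 4 and 1182, 1105, 1006, 897 and 966 CPM in Sham mice 0 to 4. CPM (counts scaled to a common library size) were normalized for library composition. The libraries held 30590935 to 35634427 estimated counts in MSC and 30783451 to 41554249 in Sham, so that 3 counts, taken as the lowest detectable level, corresponded to 0.0738 to 0.101 CPM. Genes of deeper structures differed between mice in a way that did not follow the groups. Of lists put together after the values were seen, the summed level of 9 hypothalamus genes was 84.8, 10.9, 145, 112 and 5.04 CPM in MSC mice 0 to 4 and 4.64, 9.25, 92.4, 188 and 110.1 CPM in Sham mice 0 to 4. That of 8 hindbrain and cerebellum genes was 8.02, 13.1, 7.83, 8.51 and 76.4 CPM in MSC and 15.2, 45.8, 9.03, 6.87 and 6.92 CPM in Sham. MSC mouse 4 stood apart in these genes as well as in immune genes. MSC mouse 1 and Sham mice 0 and 1 shared its low hypothalamic genes. With the mean log2 level of the hindbrain and cerebellum genes as a covariate, added after the data were seen, 194 genes were called higher, 181 of them among the 191. With the choroid plexus markers in the same place, 136 were called higher, 135 of them among the 191. In bulk tissue, more cells of a type and more RNA per cell cannot be told apart.

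**Figure D1:**
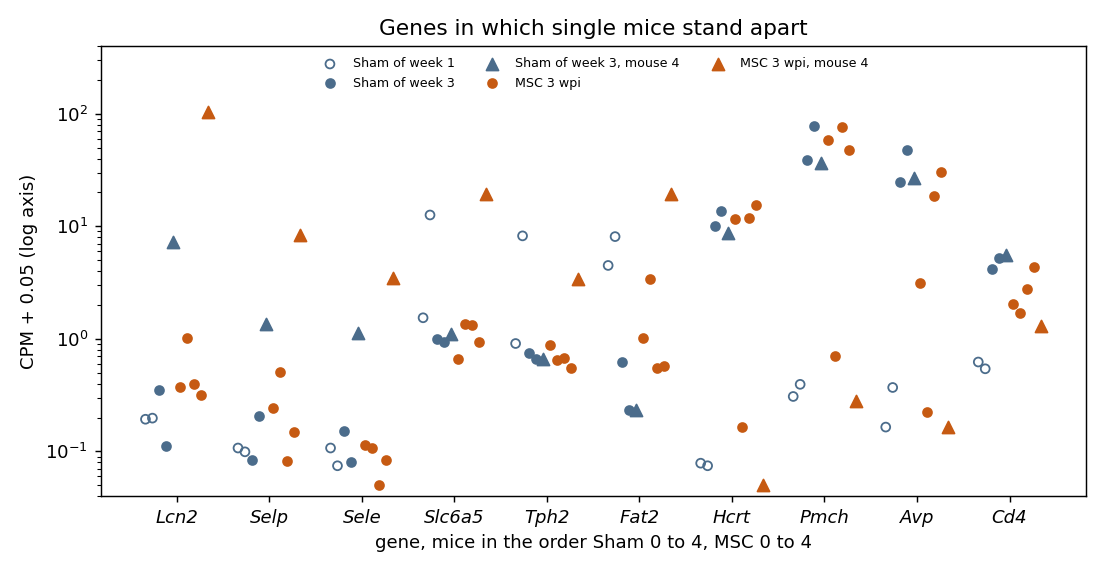
CPM plus 0.05 on a log axis, in each of the 10 mice, of 10 genes in which single mice stand apart, with open circles for Sham mice of week 1 and triangles for the mice numbered 4. Lcn2, Selp and Sele are highest in MSC mouse 4 and next in Sham mouse 4, while the hypothalamic genes Hcrt and Pmch are near 0 in MSC mice 1 and 4 and in Sham mice 0 and 1.

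The gene with the smallest p-value was C4b, the complement component C4, at 119, 86.3, 93.0, 129 and 182 CPM in MSC mice 0 to 4 and 31.1, 36.4, 29.3, 26.8 and 41.6 CPM in Sham mice 0 to 4 (log2 fold change 1.88, SE 0.18, edgeR adjusted p = 2.4e-07). Every MSC mouse was above every Sham mouse by more than 2 times, and the fold change was 1.69 (edgeR adjusted p = 6.5e-07) without MSC mouse 4. C4b has a near-identical neighbour, C4a, between which the counting may divide reads. Second was Cd8a, the alpha chain of the CD8 co-receptor of cytotoxic T cells, at 1.78, 1.98, 1.48, 1.36 and 2.64 CPM in MSC mice 0 to 4 and 0.315, 0.369, 0.268, 0.309 and 0.401 CPM in Sham mice 0 to 4 (log2 fold change 2.46, SE 0.27, edgeR adjusted p = 1.6e-06). Its values were low, but those of the groups did not overlap, and no MSC mouse stood apart from the others in it. A fold change of 1.22 (edgeR adjusted p = 6.8e-05) was found for Hvcn1, a voltage-gated proton channel of microglia and B cells, in which MSC mouse 4 was among the lower of the 5. The genes with the smallest p-values thus included complement, T cell and microglial genes. In the plot of fold changes with and without MSC mouse 4, most called genes lie a little under the line of equal values.

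**Figure D2:**
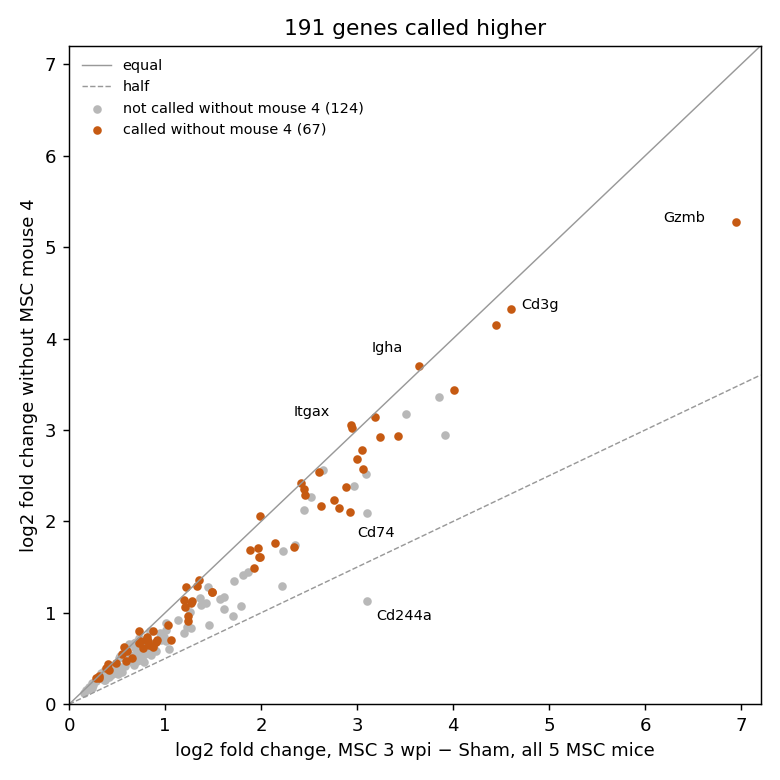
Log2 fold change of MSC over Sham of the 191 genes called higher, with all 5 MSC mice (x axis) and without MSC mouse 4 (y axis), 1 point per gene, coloured where the gene was also called without mouse 4, with a line for equal values and a dashed line for values reduced by 50%. All 191 points lie above 0 on the y axis, 67 are still called, Cd244a alone lies under the lower line, and Gzmb, with 0 counts in Sham, stands at its fitted value, which is no measured fold.

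Of the 20 genes of MHC class I presentation, the route by which nucleated cells show peptides from their own proteins to CD8 T cells, 12 were higher and none was lower, against 1.11% of all genes. The median log2 fold change of the list was 0.60. B2m, the invariant light chain of all class I proteins, was at 80.2, 74.2, 73.6, 87.4 and 139 CPM in MSC mice 0 to 4 and 48.1, 47.7, 51.0, 44.7 and 50.1 CPM in Sham mice 0 to 4 (log2 fold change 0.91, SE 0.14, edgeR adjusted p = 0.00017). H2-D1, a classical class I heavy chain, was at 79.5, 70.7, 68.5, 82.9 and 153 CPM in MSC mice 0 to 4 and 36.1, 38.8, 36.9, 37.3 and 43.3 CPM in Sham mice 0 to 4, and its log2 fold change was 1.24 ± 0.16 (SE, edgeR adjusted p = 2.7e-05). In both genes all MSC mice were above all Sham mice, and MSC mouse 4 was well above the other 4, which differed little among themselves. The other classical heavy chain, H2-K1, rose by 1.24, again with mouse 4 far above the others. Nlrc5, the transcriptional activator of class I genes, rose by 1.97 on the log2 scale (edgeR adjusted p = 3.6e-05). The peptide transporter genes Tap1 and Tap2 rose by 0.84 and 0.39, the immunoproteasome subunits Psmb8 and Psmb9 by 1.01 and 1.01, and the peptide loading protein Tapbp by 0.25. Without MSC mouse 4, 7 of the 20 were called and the median was 0.46. The heavy chains, B2m and Nlrc5 were among the 7, while the transporters, proteasome subunits and Tapbp were not, with adjusted p-values of 0.070 to 0.11 in edgeR. The non-classical class I genes H2-Q4, H2-Q6 and H2-Q7 also rose, by 0.81, 2.14 and 2.89. H2-Q6 and H2-Q7 are close copies of each other, so their separate values are uncertain.

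Promoters were searched for motifs because class I, interferon and myeloid genes were higher together. Promoter windows of RefSeq (GRCm38.p6) were searched on both strands over the 250 bases before each gene's start for GAAA and GAAA with NN (2 bases of any kind) between them, the core of the interferon-stimulated response element, and for GAGGAAGT, a site of the myeloid factor PU.1. Of the 191 genes, 152 had a window. The first motif was in 16 of the 152 (10.5%), and in 3.29% of the tested genes with a window and 2.98% of all windows. The second was in 12 of the 152 (7.89%), and in 2.75% of the tested genes and 2.44% of all windows. These are descriptions of letters and not of binding, and a gene whose window lacked them may have other sites. The following stretches show the first motif in B2m, in the guanylate-binding protein Gbp2, in the chemokine Cxcl10, in the immunity-related GTPase Irgm2 and in the cathepsin Ctss, with the motif in capitals and each sequence written 5′ to 3′ on the strand of the gene, so that a motif on the other strand appears as its reverse complement.
B2m (chr2:122147523-122147582, plus strand): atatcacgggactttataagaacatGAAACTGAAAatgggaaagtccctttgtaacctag
Gbp2 (chr3:142620579-142620638, plus strand): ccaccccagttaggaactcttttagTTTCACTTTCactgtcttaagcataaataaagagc
Cxcl10 (chr5:92349068-92349127, minus strand): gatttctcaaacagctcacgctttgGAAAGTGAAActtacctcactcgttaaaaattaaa
Irgm2 (chr11:58214888-58214947, plus strand): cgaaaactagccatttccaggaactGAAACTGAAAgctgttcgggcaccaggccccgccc
Ctss (chr3:95526740-95526785, plus strand): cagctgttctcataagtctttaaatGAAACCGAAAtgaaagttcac
The second motif is shown for the Toll-like receptor Tlr1, for the phosphatase Inpp5d and for the Fc receptor Fcgr4, whose window held both motifs and whose first motif stands in the last line.
Tlr1 (chr5:64933559-64933606, minus strand): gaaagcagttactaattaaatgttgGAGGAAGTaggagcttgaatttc
Inpp5d (chr1:87620267-87620311, plus strand): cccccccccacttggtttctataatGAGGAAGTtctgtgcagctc
Fcgr4 (chr1:171018877-171018925, plus strand): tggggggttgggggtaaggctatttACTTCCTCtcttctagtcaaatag
Fcgr4 (chr1:171018828-171018887, plus strand): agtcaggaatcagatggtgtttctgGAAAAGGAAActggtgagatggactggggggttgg
All 8 genes were called higher with all 5 MSC mice, by log2 fold changes from 0.40 in Inpp5d to 2.64 in Cxcl10, and B2m, Irgm2 and Tlr1 were also called without MSC mouse 4.

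MHC class II proteins show peptides from outside the cell to CD4 T cells and are made by microglia and macrophages when activated. Of 10 class II genes, 6 were higher, with a median log2 fold change of 1.10. Cd74, the invariant chain that guides class II proteins, was at 13.9, 19.2, 10.7, 14.6 and 69.2 CPM in MSC mice 0 to 4 and 3.44, 3.74, 3.96, 2.54 and 3.21 CPM in Sham mice 0 to 4 (log2 fold change 2.92, SE 0.43, edgeR adjusted p = 0.00013). H2-Aa, an alpha chain, was at 4.79, 8.17, 4.15, 5.86 and 22.2 CPM in MSC mice 0 to 4 and 1.52, 1.87, 1.24, 0.804 and 0.926 CPM in Sham mice 0 to 4, with a log2 fold change of 2.81 (edgeR adjusted p = 0.00023). MSC mouse 4 was more than 3 times as high as any other MSC mouse in Cd74 and more than 2 times in H2-Aa, yet the other 4 were also each above all Sham mice. Without it the log2 fold changes were 2.11 and 2.15, and 5 of the 10 genes were called, all but H2-DMb1. The beta chains H2-Ab1 and H2-Eb1 rose by 2.76 and 2.34. Ciita, the master activator of class II genes, was not called, at a log2 fold change of 0.26 ± 0.18 (SE, edgeR adjusted p = 0.65), and its values overlapped between the groups. Between the outermost called genes of the MHC cluster named H2 (chr17:33996017-35443773, GRCm38), 78 genes were tested and 15 were called higher, 19.2% of them, of which 10 were called without MSC mouse 4 (12.8%), against 1.11% and 0.397% of all genes. The limits of this interval were set by called genes, so its share of calls is partly fixed by that choice and is a description. The 15 included C4b, which lies in this cluster but is no presentation gene.

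**Figure D3:**
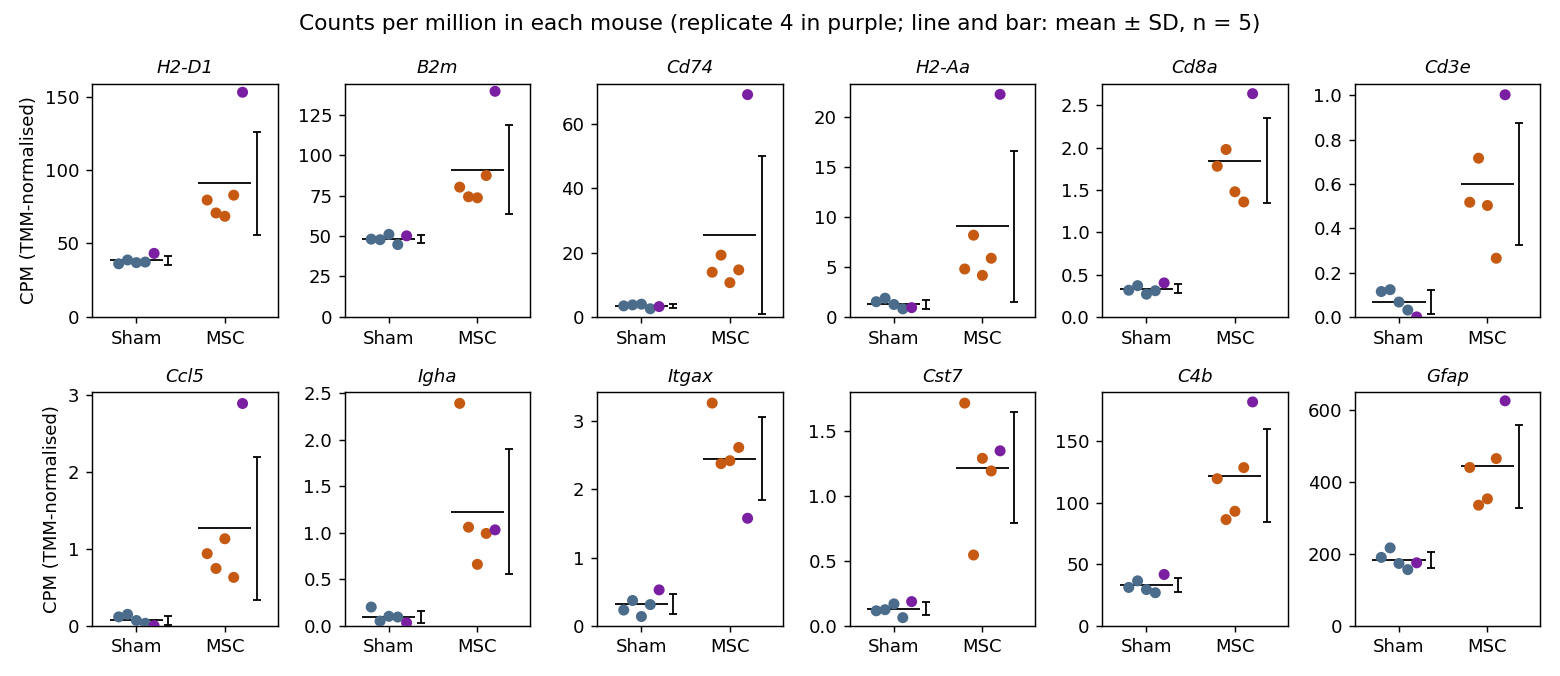
CPM of 12 genes in each Sham and each MSC mouse, 1 panel per gene with its own linear axis from 0, mouse 4 of each group in purple, with a line at the mean and a bar for the SD (n = 5). In Cd74 and H2-Aa MSC mouse 4 stands far above the other 4 MSC mice, in Cd8a and C4b it is the highest by less, and in Itgax it is the lowest of the 5.

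Transcripts of the T cell receptor chains Cd3e and Cd3g were near the detection limit in Sham and higher in every MSC mouse. Of 27 T cell genes, 11 were higher, none was lower, and the median log2 fold change was 0.97. The list also holds Thy1 and Bcl11b, which neurons make, and its summed level, 619.6 to 731 CPM in MSC and 648 to 675 CPM in Sham, overlapped between the groups. Cd3e, a chain of the T cell receptor complex, was at 0.518, 0.716, 0.503, 0.265 and 1.00 CPM in MSC mice 0 to 4 and 0.115, 0.123, 0.0671, 0.0309 and 0 CPM in Sham mice 0 to 4 (log2 fold change 3.05, SE 0.44, edgeR adjusted p = 8.5e-05). This is 8 to 35 counts per MSC library and 0 to 5 per Sham library. For Cd3g, another chain of this complex, the Sham libraries held 3 counts in all and the MSC libraries 85, a ratio of 29.6 per library size with a 95% exact interval of 9.79 to 146 that covers counting error only. Cd8b1, the other CD8 chain, rose by 3.24 on the log2 scale. The CD3 chains are found in all T cells and the CD8 chains in those of the CD8 kind, and in each of Cd3e, Cd3g, Cd8a and Cd8b1 every MSC mouse was above every Sham mouse. Cxcr6, a chemokine receptor of tissue-resident T cells, was at 0.420, 0.860, 0.723, 0.463 and 0.802 CPM in MSC mice 0 to 4 and 0.143, 0.0984, 0.101, 0.155 and 0.0926 CPM in Sham mice 0 to 4 (edgeR adjusted p = 6.4e-05). Gimap4, a GTPase of lymphocytes outside the list, rose by 2.63, and the receptor subunit Il2rb, the kinase Lck and the co-stimulator Cd28 by 1.99, 0.69 and 1.44. Cd4, the co-receptor of helper T cells and in mice also made outside them, was at 2.01, 1.63, 2.74, 4.34 and 1.26 CPM in MSC mice 0 to 4 and 0.573, 0.492, 4.16, 5.17 and 5.5 CPM in Sham mice 0 to 4, with the low values in the 2 Sham mice taken at 1 week, and was not called. Without MSC mouse 4, 8 of the 27 genes were called, among them both CD8 chains, Cd3e and Cd3g, and the median was 0.76.

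Genes of cytotoxic lymphocytes were called higher in 6 of 14 cases, with a median log2 fold change of 2.08, or 2.00 with genes at 0 in Sham set to their bound. Without MSC mouse 4, the highest MSC mouse in 12 of the 14, 3 were called, Gzmb, Nkg7 and Ccl5, and these medians were 1.53 and 1.18. Ccl5, a chemokine that activated T cells release, was at 0.938, 0.745, 1.13, 0.629 and 2.89 CPM in MSC mice 0 to 4 and 0.115, 0.148, 0.0671, 0.0309 and 0 CPM in Sham mice 0 to 4 (log2 fold change 4.01, SE 0.54, edgeR adjusted p = 3.6e-05). Gzmb, the death-inducing protease granzyme B, had 3, 9, 2, 4 and 57 counts in MSC mice 0 to 4 and 0 in all Sham libraries. Against a floor of 3 counts per Sham library it was at least 4.90-fold higher (edgeR adjusted p = 0.0035), and most of its counts came from MSC mouse 4. Without that mouse this bound was 1.54-fold. Nkg7, a protein of cytotoxic granules, was at 0.420, 0.201, 0.346, 0.0331 and 0.745 CPM in MSC mice 0 to 4 and 0.0573, 0, 0, 0.0309 and 0.0618 CPM in Sham mice 0 to 4 and rose by 3.43. Here MSC mouse 3 was within the range of Sham, so the groups overlapped. Prf1, the pore-forming perforin, was not called, at a log2 fold change of 1.71 (edgeR adjusted p = 0.065), with 4 MSC mice above all Sham mice. The transcription factor Tbx21 and the killer cell receptor Klrd1 were called with all mice and not without mouse 4. Of 7 B and plasma cell genes, 2 were higher, Igkc and Cd22, and Igkc was also called without mouse 4. Igkc, the kappa light chain constant region, was at 1.46, 2.32, 0.786, 0.960 and 1.00 CPM in MSC mice 0 to 4 and 0.0859, 0.0492, 0.235, 0.309 and 0.185 CPM in Sham mice 0 to 4 (edgeR adjusted p = 0.0072). Igha, the IgA heavy chain constant region and not in the list, was at 2.39, 1.06, 0.660, 0.993 and 1.03 CPM in MSC mice 0 to 4 and 0.200, 0.0492, 0.101, 0.0928 and 0.0309 CPM in Sham mice 0 to 4 (log2 fold change 3.65, SE 0.58, edgeR adjusted p = 0.00033). In these antibody genes mouse 4 was not the highest, and their fold changes were 3.02 and 3.70 without it. The B cell genes Cd79a, Cd79b and Pax5 were not called. Pax5 was at 4.15 CPM in MSC mouse 4, at most 1.12 CPM in the other MSC mice and up to 4.21 CPM in Sham. Its level thus did not follow the groups.

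In microglia, a set of genes rises around dying cells and plaques while genes of the resting state fall. Of 25 such disease-associated genes, 10 were higher, and all 25 had a log2 fold change above 0, with a median of 0.44. Itgax, the integrin CD11c, was at 3.27, 2.38, 2.42, 2.62 and 1.58 CPM in MSC mice 0 to 4 and 0.229, 0.369, 0.134, 0.309 and 0.525 CPM in Sham mice 0 to 4 (log2 fold change 2.94, SE 0.43, edgeR adjusted p = 0.00013). Cst7, a cathepsin inhibitor, was at 1.71, 0.544, 1.29, 1.19 and 1.35 CPM in MSC mice 0 to 4 and 0.115, 0.123, 0.168, 0.0619 and 0.185 CPM in Sham mice 0 to 4, a log2 fold change of 3.19, and the receptor Clec7a rose by 2.41. No MSC mouse overlapped with Sham in these 3 genes, and mouse 4 was the lowest of the MSC mice in Itgax and neither highest nor lowest in Cst7 and Clec7a, and their fold changes without it were 3.06, 3.14 and 2.42. Apoe, a lipid carrier of glia, was at 1556, 1359, 1324, 1528 and 1228 CPM in MSC mice 0 to 4 and 1088, 1087, 1029.7, 1106 and 989.7 CPM in Sham mice 0 to 4 (log2 fold change 0.40, edgeR adjusted p = 0.031). Trem2, the lipid receptor on which this state depends, and its adaptor Tyrobp rose by 0.62 and 0.70 with all mice. Without mouse 4, which was below the mean of the other MSC mice in Trem2 and above it in Tyrobp, neither was called, Trem2 at 0.66 (edgeR adjusted p = 0.051) and Tyrobp at 0.57 (edgeR adjusted p = 0.090). Axl, a receptor for dying cells, was called only without mouse 4, at 0.21 against 0.19 with it. Without mouse 4, 6 of the 25 were called and the median was 0.38. Among 15 genes of resting microglia 1 was higher, the fractalkine receptor Cx3cr1, at 63.3, 55.5, 53.3, 55.9 and 58.2 CPM in MSC mice 0 to 4 and 48.5, 43.8, 44.5, 42.4 and 45.2 CPM in Sham mice 0 to 4 (edgeR adjusted p = 0.011 with and 0.053 without mouse 4), and none was lower. P2ry12, the purine receptor of resting microglia, was at 32.9, 33.9, 31.1, 30.4 and 20.1 CPM in MSC mice 0 to 4 and 35.3, 30.1, 32.0, 27.6 and 29.3 CPM in Sham mice 0 to 4 and was not called. Its level was lowest in MSC mouse 4 and similar in the other 9 mice. The transmembrane protein Tmem119 was at 18.4, 18.4, 17.4, 20.2 and 22.5 CPM in MSC mice 0 to 4 and 14.8, 16.9, 17.3, 16.1 and 17 CPM in Sham mice 0 to 4 and was not called either.

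Complement proteins tag debris and synapses for removal. Of 21 complement genes, 7 were higher, with a median log2 fold change of 0.65. C1qa, a chain of the recognition protein C1q made by microglia, was at 51.1, 43.4, 38.8, 46.7 and 82.2 CPM in MSC mice 0 to 4 and 24.6, 24.8, 25.6, 25.5 and 39.8 CPM in Sham mice 0 to 4 (log2 fold change 0.90, SE 0.16, edgeR adjusted p = 0.0021). Both mice numbered 4 stood above their groups in it, and the lowest MSC mouse was just under Sham mouse 4. C3, the central component, was at 9.41, 7.79, 7.01, 11.5 and 30.3 CPM in MSC mice 0 to 4 and 1.03, 1.94, 1.07, 2.04 and 2.35 CPM in Sham mice 0 to 4 (log2 fold change 2.96 ± 0.71, SE, edgeR adjusted p = 0.028). C3 was thus higher in every MSC mouse, but its fold change without mouse 4 was 2.39 (edgeR adjusted p = 0.19) and it was no longer called, nor was it with the choroid plexus markers as a covariate (edgeR adjusted p = 0.057). The inhibitor Serping1, the protease C1s1 and the receptor C5ar1 rose by 0.75, 1.07 and 1.71. C4b, C1qa and C1s1 were called without mouse 4, when the list's median was 0.38. Per gene length, C4b was at 57.5 ± 20.3 TPM, a length-scaled unit of transcripts, in MSC and 14.7 ± 2.57 TPM in Sham, C3 at 5.83 ± 3.73 and 0.751 ± 0.246 TPM and C1qa at 125 ± 42.8 and 67.1 ± 16.8 TPM (SD, n = 5 each).

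The largest number of calls in any list was in Fc receptors and myeloid signalling, with 16 of 34 genes and a median of 0.66, and this list also lost the most calls when MSC mouse 4 was left out. Without it, 3 genes were called, namely Clec7a, the phosphatase Ptpn6 and the oxidase subunit Cyba, and the median was 0.41. Ptpn6, which dampens immune receptor signals, was at 5.05, 4.61, 4.59, 5.13 and 9.26 CPM in MSC mice 0 to 4 and 3.01, 2.95, 2.95, 2.78 and 3.98 CPM in Sham mice 0 to 4 (log2 fold change 0.87, SE 0.17, edgeR adjusted p = 0.0047). Cybb, the catalytic subunit of the phagocyte oxidase, was at 2.20, 2.21, 2.30, 2.22 and 5.44 CPM in MSC mice 0 to 4 and 0.859, 1.26, 0.839, 0.433 and 0.926 CPM in Sham mice 0 to 4 (edgeR adjusted p = 0.0069 with and 0.075 without mouse 4). The other 4 MSC mice lay within a narrow range of Cybb and all above Sham, so the call was lost while the groups stayed apart. Fcgr4, a receptor for antibody, was at 0.712, 1.23, 0.912, 0.728 and 3.72 CPM in MSC mice 0 to 4 and 0.286, 0.369, 0.403, 0.433 and 0.648 CPM in Sham mice 0 to 4, and its log2 fold change was 1.79 with and 1.07 without mouse 4. When Sham mouse 4 was left out along with MSC mouse 4, 15 of the 34 were called. Among the MSC mice such a loss was found for mouse 4 only. Leaving out any other MSC mouse left 15 to 24 of the 34 called, with medians of 0.69 to 0.73. The calls also depended on the Sham mice used. Against the Sham mice of week 3 alone, with MSC mouse 4 kept, 3 of the 34 were called and the median was 0.62. Of 26 genes of lysosomes and cathepsins 5 were higher with all mice, 0 without MSC mouse 4 and 5 without both mice 4. Against the Sham mice of week 3 alone, with MSC mouse 4 kept, 0 were. Leaving out any other MSC mouse left 2 to 6 of the 26 called. Ctss, the cathepsin that trims the class II invariant chain, was at 64.1, 61.6, 62.2, 70.1 and 119 CPM in MSC mice 0 to 4 and 36.9, 34.3, 37.0, 36.4 and 71.1 CPM in Sham mice 0 to 4 (log2 fold change 0.81, SE 0.18, edgeR adjusted p = 0.019). Sham mouse 4 was above 4 of the 5 MSC mice. Cd68, a lysosomal protein of phagocytes, rose by 0.73, and Sham mouse 4 lay above 2 MSC mice in it. All 26 lysosomal genes had positive log2 fold changes, of small size, with a median of 0.19.

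Reactive astrocytes were represented by 28 genes, of which 7 were higher, with a median log2 fold change of 0.65. Gfap, the filament protein that marks reactive astrocytes, was at 439.6, 335, 352, 464 and 625 CPM in MSC mice 0 to 4 and 189.7, 216, 173, 156 and 175 CPM in Sham mice 0 to 4 (log2 fold change 1.28, SE 0.18, edgeR adjusted p = 7.5e-05). The MSC and Sham mice were apart without overlap, MSC mouse 4 was the highest, and the fold change without it was 1.12 (edgeR adjusted p = 0.00052). Vim, another filament protein, rose by 0.79, and Serpina3n, a secreted protease inhibitor, by 1.26, at 37.8, 32.3, 30.6, 35.4 and 64.7 CPM in MSC mice 0 to 4 and 20.6, 18.2, 15.8, 13.9 and 15.3 CPM in Sham mice 0 to 4. In both genes all MSC mice were above all Sham mice, and neither was called without mouse 4, with adjusted p-values of 0.10 and 0.093 in edgeR. Gfap and Ggta1 were the 2 genes of the list called without mouse 4, and the list's median was then 0.37. Lcn2, a secreted iron-scavenging protein of reactive astrocytes, neutrophils and endothelium, was at 0.323, 0.974, 0.346, 0.265 and 104 CPM in MSC mice 0 to 4 and 0.143, 0.148, 0.302, 0.0619 and 7.23 CPM in Sham mice 0 to 4, with a log2 fold change of 3.79 with and -1.65 without mouse 4, neither of them called. Its level was thus that of 1 MSC mouse. Osmr, the receptor of oncostatin M, was not called, at 0.69 (edgeR adjusted p = 0.073). General astrocyte markers gave no call in 12 genes, with a median of 0.13 and summed levels of 7541 to 8234 CPM in MSC and 6963 to 7620.2 CPM in Sham. Clu, a secreted chaperone made by astrocytes and in no list of these, was at 678, 671, 621, 676 and 650.1 CPM in MSC mice 0 to 4 and 530.4, 537, 534, 555 and 549 CPM in Sham mice 0 to 4 (log2 fold change 0.28, edgeR adjusted p = 0.0057), a small difference without overlap and with little spread.

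Interferon-gamma is released by T cells and killer cells and induces guanylate-binding proteins, immunity-related GTPases and chemokines. Of 23 genes induced by it, 9 were higher, with a median log2 fold change of 0.56. Iigp1, a GTPase that attacks vacuoles of parasites, was at 2.52, 3.24, 2.58, 5.43 and 3.84 CPM in MSC mice 0 to 4 and 1.46, 1.48, 1.48, 1.24 and 1.30 CPM in Sham mice 0 to 4 (log2 fold change 1.34, SE 0.28, edgeR adjusted p = 0.0078), with the highest value in MSC mouse 3. Irgm2, of the same family, rose by 0.60, and the transcription factors Irf1 and Irf8 by 0.41 and 0.80. Cxcl10, which draws T cells, was at 0.679, 0.458, 0.314, 1.29 and 0.860 CPM in MSC mice 0 to 4 and 0.172, 0.0738, 0.101, 0.124 and 0.0926 CPM in Sham mice 0 to 4 (log2 fold change 2.64), highest again in MSC mouse 3. Mouse 4 was the highest in 10 of the 23 genes. The median of the list was 0.53 without that mouse, and 3 genes were then called. Against the Sham mice of week 3 alone, with mouse 4 kept, the median was 0.62 and 1 gene was called. Of 32 genes induced by type I interferons, 2 were higher, Parp14 and Slfn8, of which Slfn8 was called without mouse 4, and all 32 had positive log2 fold changes, with a median of 0.40 with and 0.28 without mouse 4.

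Chemokines guide leukocytes, and 8 of 32 chemokine and receptor genes were higher, with a median log2 fold change of 0.93. Without mouse 4, the highest MSC mouse in 20 of the 32, 3 were called, Ccl5, Cxcl16 and Cxcr6, and the median was 0.39. Besides Ccl5, Cxcl10, Cxcr6 and Cx3cr1 the genes called with all mice were Cxcl16, the ligand of Cxcr6, the monocyte attractant Ccl12, the T cell attractant Cxcl9 and the lymph node homing receptor Ccr7. Cxcl16 was at 2.72, 3.07, 2.20, 2.75 and 4.21 CPM in MSC mice 0 to 4 and 1.35, 1.6, 1.41, 1.30 and 1.67 CPM in Sham mice 0 to 4 (log2 fold change 1.03, SE 0.20, edgeR adjusted p = 0.0044). Ccl12 was at 0.518, 0.544, 0.377, 0.728 and 2.89 CPM in MSC mice 0 to 4 and 0.115, 0.172, 0.134, 0.247 and 0.432 CPM in Sham mice 0 to 4, with a log2 fold change of 2.21 with and 1.29 without mouse 4. Ccr7 was at 0.162, 0.229, 0.126, 0.232 and 1.12 CPM in MSC mice 0 to 4 and 0.0286, 0.0738, 0, 0.0619 and 0.0309 CPM in Sham mice 0 to 4. Mouse 4 was several times above the other MSC mice in both, and neither was called without it. Ccl2, the monocyte attractant most studied after injury, was at 0.0647, 0.172, 0.0943, 0.199 and 0.458 CPM in MSC mice 0 to 4 and 0, 0.0738, 0.101, 0 and 0.154 CPM in Sham mice 0 to 4 and was not called. Among 42 cytokine and receptor genes 6 were higher with all mice and 1 without mouse 4, the receptor subunit Il2rb. Il1a, an alarm cytokine of microglia, rose by 0.96, Csf1, the growth factor of microglia, by 0.30, and Il10ra, the receptor of interleukin-10, by 0.47. Csf1 was at 27.7, 27.1, 26.3, 27.1 and 27.3 CPM in MSC mice 0 to 4 and 21.7, 22.5, 22.4, 21.0 and 22.1 CPM in Sham mice 0 to 4, the same in mouse 4 as in the other MSC mice. Its log2 fold change of 0.30 did not move without it while the adjusted p did (edgeR adjusted p = 0.038 with and 0.13 without). Of 26 pattern recognition genes 4 were higher, Ly86 and the Toll-like receptors Tlr1, Tlr9 and Tlr13, and Tlr1 and Tlr9 were called without mouse 4. Tlr1 was at 1.33, 0.888, 0.755, 0.828 and 1.86 CPM in MSC mice 0 to 4 and 0.487, 0.246, 0.436, 0.278 and 0.587 CPM in Sham mice 0 to 4 (log2 fold change 1.49, SE 0.25, edgeR adjusted p = 0.00070), and the groups did not overlap.

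Monocytes and neutrophils enter injured tissue from the blood through vessels that display adhesion proteins. Of 24 monocyte and macrophage genes 3 were higher, 1 without mouse 4, and their median log2 fold change was 0.63 with mouse 4 and 0.07 without it, while leaving out any other MSC mouse gave 0.65 to 0.72. S100a4, a calcium-binding protein of infiltrating cells, was at 2.13, 1.38, 1.13, 1.69 and 1.86 CPM in MSC mice 0 to 4 and 0.745, 0.615, 0.705, 0.866 and 0.648 CPM in Sham mice 0 to 4 (edgeR adjusted p = 0.0072) and kept its call. Mrc1, the mannose receptor CD206 of border macrophages, was at 7.50, 5.56, 6.38, 8.08 and 16.0 CPM in MSC mice 0 to 4 and 6.87, 7.33, 6.17, 4.67 and 9.48 CPM in Sham mice 0 to 4 and was not called, with a log2 fold change of 0.34 with and -0.02 without mouse 4. None of 10 neutrophil genes was called, and their median was 0.47 with and -0.44 without mouse 4. The direction of that list was thus that of 1 mouse. Csf3r, the receptor of the neutrophil growth factor G-CSF and also made by microglia, was at 11.3, 10.3, 10.3, 12.2 and 19.8 CPM in MSC mice 0 to 4 and 5.84, 6.00, 7.92, 7.27 and 12.4 CPM in Sham mice 0 to 4 (edgeR adjusted p = 0.062). Of 17 leukocyte adhesion genes 2 were higher, the integrins Itgal and Itgax, of which Itgax was called without mouse 4, and the list's median was 0.57 with and 0.13 without mouse 4.

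**Figure D4:**
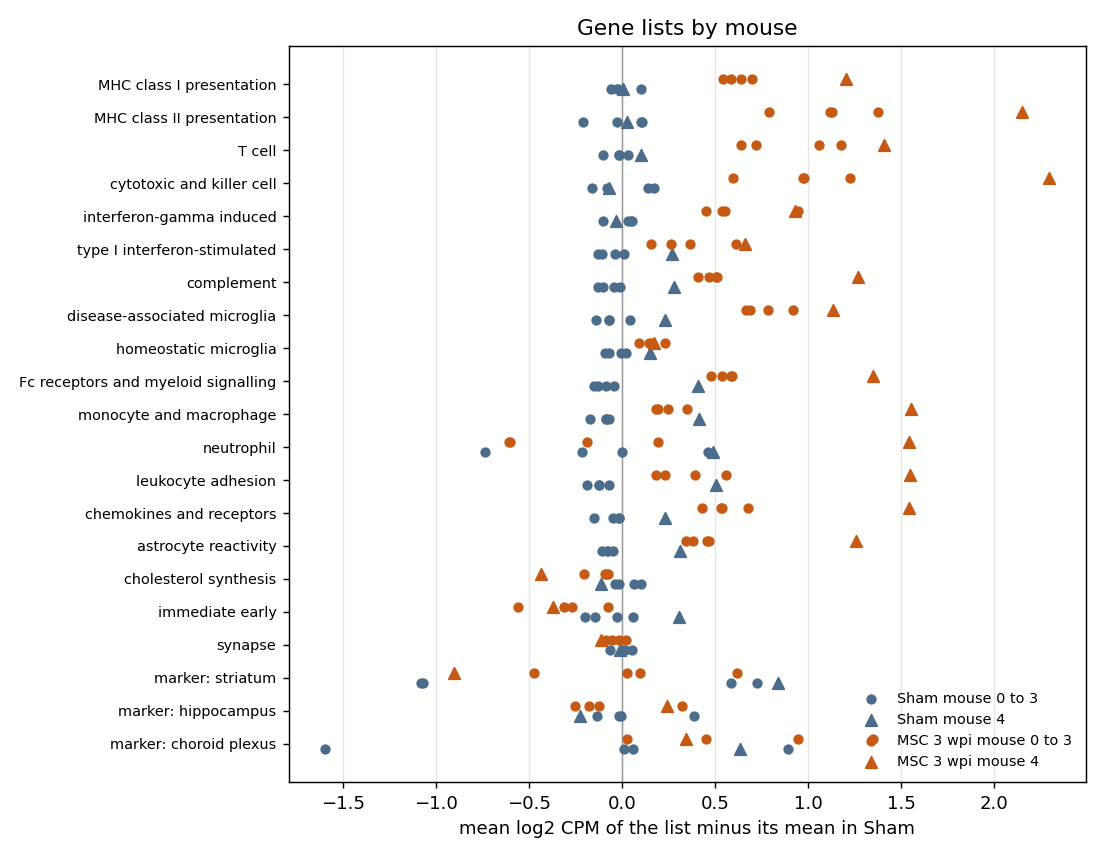
Mean log2 CPM of the genes of each list in each mouse, minus the mean of the 5 Sham mice, 1 row per list, with triangles for the mice numbered 4. MSC mouse 4 lies far to the right of the other MSC mice in the monocyte, neutrophil, adhesion and complement lists, level with MSC mouse 3 in the interferon-gamma list and within the MSC mice in that of homeostatic microglia, and the marker lists of regions spread as widely in Sham as in MSC.

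Few genes were lower in MSC, and by little. Of the 6, 5 are described. Pcsk1, a protease that cuts neuropeptide precursors, was at 55.9, 47.6, 54.2, 56.5 and 49.2 CPM in MSC mice 0 to 4 and 61.3, 64.4, 63.9, 68.4 and 71.9 CPM in Sham mice 0 to 4 (log2 fold change -0.33, SE 0.06, edgeR adjusted p = 0.0035), with no overlap. It was the only one of the 6 still called without mouse 4, at -0.31 (edgeR adjusted p = 0.018). Diras2, a small GTPase of neurons, was at 240.1, 233, 220.1, 242 and 208 CPM in MSC mice 0 to 4 and 276, 274, 278, 258 and 278 CPM in Sham mice 0 to 4, and its log2 fold change was -0.25 (edgeR adjusted p = 0.032). The kinase Mapk8, also called JNK1, gave -0.13, the synaptic organiser Cbln2 -0.26 and the acyl-CoA synthetase Acsl5 -0.16. These are small differences, and of these 5 genes the groups overlapped in Cbln2 only. Of 18 cholesterol synthesis genes, 11 had an unadjusted p under 0.05 and a lower value in MSC, and 0 had a positive log2 fold change, with a median of -0.15 with and -0.12 without mouse 4. Mouse 4 was the lowest MSC mouse in 17 of the 18, and their summed level was 1045 CPM in it, 1233 to 1331 CPM in the other MSC mice and 1338 to 1501 CPM in Sham. At that unadjusted threshold 3.40% of all genes were lower. Among 20 immediate early genes, which neurons switch on when they fire, none was called. All 20 had negative log2 fold changes, 13 of them with an unadjusted p under 0.05, and the median was -0.33 with and -0.30 without mouse 4. Egr1 was at 273, 255, 223, 269.7 and 179 CPM in MSC mice 0 to 4 and 249, 247, 294, 318 and 409 CPM in Sham mice 0 to 4, Sham mouse 4 being the highest of all 10 mice and MSC mouse 4 the lowest. The median of this list in PBS against the same Sham mice was -0.41.

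No gene was called in the lists of synapse (30 genes, median log2 fold change -0.04), collagens and matrix (31 genes, 0.18), iron and heme (15 genes, 0.16), cell cycle (24 genes, -0.01) and posterior Hox genes (9 genes, -0.14). The last were included because they mark cells of the trunk, from which MSCs may come, and their summed level was 1.03 to 1.69 CPM in MSC and 1.26 to 1.89 CPM in Sham, at or near the detection limit per gene. The 13 lists of cell type and region markers held 142 tested genes, and 0 of them were called with edgeR. Oligodendrocyte markers had a median of -0.09, endothelial markers 0.02 and neuron markers -0.10. Medians farther from 0 were those of erythrocyte markers at 1.09, choroid plexus markers at 0.49 with all 11 genes above 0, ependyma markers at 0.33 and striatum markers at -0.31 with all 14 below 0. Against the Sham mice of week 3 alone these 4 medians were 1.39, 0.12, 0.02 and -0.82. Against those of week 1 alone they were 0.91, 1.35, 0.90 and 0.98, so the sign for striatum depended on the Sham mice used. Choroid plexus markers summed to 869 to 2089.8 CPM in MSC and 359 to 1623 CPM in Sham, striatum markers to 606 to 1290.3 CPM in MSC and 565 to 1518 CPM in Sham and erythrocyte markers to 3.87 to 61.1 CPM in MSC and 1.95 to 19.7 CPM in Sham. These 3 lists varied by more than 2 times within each group, and their ranges overlapped between groups. Of the gene panel measured in the study, 24 genes were tested and 1 was called, Il10ra, at 7.15, 6.82, 6.63, 6.89 and 8.48 CPM in MSC mice 0 to 4 and 4.44, 4.23, 4.87, 4.95 and 7.53 CPM in Sham mice 0 to 4 (edgeR adjusted p = 0.019 with and 0.13 without mouse 4).

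MSC mouse 4 was the highest of the 5 MSC mice in 150 of the 191 genes called higher (78.5%), and in 27.2% of all genes tested. The other 4 mice were the highest in 20, 7, 4 and 10 of the 191. Its log2 level was 0.65 above the mean of the other 4 at the median of the 191 genes, and over 1 above it in 53 of them, where the medians of the other mice lay between -0.26 and -0.07. Mouse 4 thus led most of the called genes. The farthest above the other mice were Cd244a, a receptor of killer cells, at 0.0970, 0.115, 0.283, 0.199 and 2.66 CPM in MSC mice 0 to 4 and 0.0573, 0.0246, 0.0336, 0.0619 and 0.216 CPM in Sham mice 0 to 4, and Gzmb, followed by Ccl12, Ccr7, Cd74 and C5ar1. Cd244a was the only one of the 191 genes whose log2 fold change was reduced by more than 50% without mouse 4, from 3.10 to 1.12. The farthest below were Itgax, Igkc, Hvcn1 and 3 more, the nucleotidyltransferase Tent5c, the small heat shock protein Hspb6 and the tryptophan pathway enzyme Haao, in which mouse 4 was at 5.42, 3.78 and 0.287 CPM against group means of 6.86 ± 1.05, 4.53 ± 0.461 and 0.360 ± 0.126 CPM (SD, n = 5).

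In the fit of all groups without mouse 4, 68 genes were called higher, 67 of them among the 191. Thus 35.1% of the calls remained and 124 were lost. The one gained was Axl. All 191 genes kept a positive log2 fold change, and 190 of them had an unadjusted p under 0.05. The median log2 fold change of the 67 was 1.34 with and 1.23 without mouse 4, and that of the 124 was 0.71 with and 0.57 without it. Mouse 4 stood as far above the others in the kept as in the lost genes, by a median of 0.65 and 0.66 on the log2 scale, and the kept genes had the larger fold changes. It was the highest MSC mouse in 45 of the 67 kept and in 105 of the 124 lost genes. Leaving out mouse 0, 1, 2 or 3 gave 190 to 263 genes, 157 to 183 of them among the 191, so that leaving out a mouse other than 4 lowered the count by 1 at most. With each of the 5 MSC mice left out in turn, 65 genes were called every time, and 64 were also called with each Sham mouse left out. The 64 genes included C4b, Cd8a, Gfap, B2m, the H2 heavy chains, the class II chains, Itgax and Ccl5, but not Gzma, C3 or Serpina3n. The loss of calls without mouse 4 depended on the fit. With only MSC and Sham in it, 74 genes were called higher with mouse 4 and 71 without it. Of these, 62 and 60 were among the 191.

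**Figure D5:**
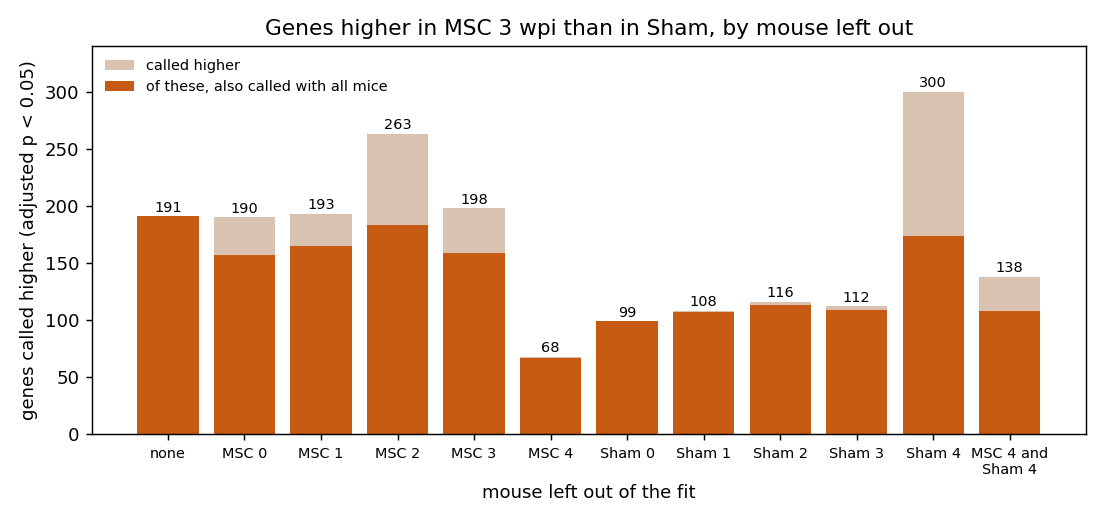
Number of genes called higher in MSC than in Sham (adjusted p under 0.05, y axis) with no mouse, each mouse in turn, or both mice 4 left out (x axis), with the dark part of a bar giving the genes also called with all mice. The bar without MSC mouse 4 stands at 68 and that without Sham mouse 4 at 300, against 191 with all 10 mice.

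The mice numbered 4 of both groups were high in immune genes. Sham mouse 4 was the highest of the Sham mice in 98 of the 191 genes (51.3%) and in 22.4% of all genes tested. Without it 300 genes were called higher, 174 of them among the 191, and 13 lower, while leaving out any other Sham mouse gave 99 to 116. Without both mice 4, 138 genes were called higher (0.806%), 108 of them among the 191, including 44 of the 124 that had been lost. The 2 mice thus had opposite weight in the comparison. In Lcn2, the selectins Selp and Sele and the glycoprotein Lrg1, all made by activated vessels, MSC mouse 4 was at 104, 8.28, 3.41 and 12.7 CPM and the highest Sham values were 7.23, 1.30, 1.08 and 4.54 CPM. A list of 9 genes of endothelial activation and the acute phase was put together after the values were seen. Its summed level was 5.53, 8.45, 4.34, 4.3 and 148 CPM in MSC mice and 3.61, 4.18, 4.77, 3.09 and 21.8 CPM in Sham mice, and none was called. Whether the replicate numbers pair mice of the 2 groups is not given in the sources used here. Both mice numbered 4 were taken at 3 weeks and carry the number 5 after the dash in their titles, whose meaning is not given either. Their deviations from the group means correlated by -0.06 across genes, which are not independent replicates. A single value across genes cannot decide whether the 2 mice shared something in a part of them. With the 3 Sham mice of week 3 alone, 68 genes were called higher (0.397%), 62 of them among the 191, and with the 2 of week 1 alone 106 were, 74 of them among the 191. The first of these sets was taken in the same week as the MSC mice, and Sham mouse 4 is 1 of its 3.

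In 285 genes (1.66% of those tested) all 5 MSC mice were above all 5 Sham mice, and 128 of the 191 called genes were among them. In 106 genes (0.619%) all 5 MSC mice were below, 5 of the 6 called lower among them. Without mouse 4, 358 genes (2.09%) had the 4 MSC mice above all Sham mice, with 129 of the 191, and 203 (1.18%) had them below. Leaving out any other MSC mouse gave 398 to 405 above and 170 to 247 below, and CPM without TMM normalization gave 320 above and 51 below.

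Injured mice that had received PBS in place of cells shared the impact and the needle with MSC mice. The 2 groups also differ in the number before the dash in their labels. Anything that went with that number cannot be told apart from the cells. Against the 4 PBS mice, 14 genes were higher in MSC (0.0817% of those tested) and none was lower in edgeR, where 686 were higher and 295 lower at an unadjusted p under 0.05. All 14 were among the 191, and the 2 comparisons share the MSC mice. They were the T cell genes Cd8a, Cd3e, Cd3g, Cxcr6 and Sh2d2a, the lymphocyte GTPases Gimap3 and Gimap4, the cytotoxic genes Ccl5 and Nkg7, the class I genes H2-D1, H2-Q6 and H2-Q7, the invariant chain Cd74 and Igha. Cd8a was at 1.85 ± 0.505 CPM (SD, n = 5) in MSC, 0.491 ± 0.0750 CPM (n = 4) in PBS and 0.333 ± 0.0525 CPM (n = 5) in Sham. Its log2 fold change was 1.92 over PBS (edgeR adjusted p = 0.0011) and 0.54 for PBS over Sham. H2-D1 was at 90.9 ± 35.2, 46.4 ± 6.95 and 38.5 ± 2.83 CPM in the 3 groups, so PBS mice were nearer to Sham in both genes. Gfap was different, at 443 ± 116, 372 ± 84.0 and 182 ± 22.7 CPM, with a log2 fold change of 0.25 over PBS (edgeR adjusted p = 0.94). C4b, Itgax and Apoe likewise lay between 0.07 and 0.64 over PBS and were not called.

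Without MSC mouse 4, 9 of the 14 genes remained called against PBS and no other was, and without each of the other MSC mice 16 to 28 were called. With only MSC and PBS in the fit, 0 genes were called by edgeR, with 389 higher and 234 lower at an unadjusted p under 0.05, and DESeq2 called 31 in the fit of all groups. By list, 5 of 27 T cell genes, 2 of 14 cytotoxic genes, 3 of 20 class I genes and 1 of 10 class II genes were called, and none in the lists of astrocyte reactivity, disease-associated microglia, complement or Fc receptors. The median log2 fold change over PBS was 0.88, 1.16, 0.37 and 0.77 in the first 4 lists and 0.23, 0.09, 0.32 and 0.41 in the others. For PBS against Sham 4 genes were higher (0.0233%) and 1 lower, and the same 8 lists had medians of 0.14, 0.46, 0.20, 0.64, 0.33, 0.29, 0.25 and 0.23. This comparison uses the same Sham mice as that of MSC.

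At 1 wpi, shortly after the cells were injected, MSC mice differed from the same 5 Sham mice in more genes, 1876 of them higher (11.0%) and 1181 lower (6.89%). Gfap was at 924 ± 73.2 CPM and C4b at 142 ± 22.2 CPM (SD, n = 5) at 1 wpi, against 443 ± 116 and 122 ± 37.9 CPM at 3 wpi. Cd8a was at 0.573 ± 0.0907 CPM at 1 wpi and 1.85 ± 0.505 CPM at 3 wpi, so its values at 3 wpi were all above those at 1 wpi, which reached 0.698 CPM. Ccl5 was at 1.34 ± 0.434 and 1.27 ± 0.929 CPM, and Igkc at 0.222 ± 0.149 and 1.31 ± 0.619 CPM. The difference between the 2 times was not tested here, and these mice were different animals.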

How the data were processed

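RNA-seq was done on tissue of the left hemisphere of 35 mice, 1 library each, of which 34 have counts, since a PBS library of 3 wpi was excluded by the authors (per the labels, for high TPM). Per the labels and the methods, the authors removed adapters from paired reads (cutadapt 2.4), ran kallisto 0.46 against the protein-coding transcripts of GENCODE and summarised the result per gene. They deposited estimated counts per gene, without normalization, and TPM, which are scaled to length and library, for 21203 genes. Of 68 per-sample columns, 24 (TPM of the other groups) were not used, and the authors' own group comparisons (q-values and effect sizes) were not read. Estimated counts were rounded to whole numbers, since the deposited values need not be whole. Reads shared by near-identical copies are divided among them by estimation, so values of paralogues are uncertain.

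A single edgeR 4.0.16 (R 4.3.3) fit held all 34 libraries in 7 groups, which share the estimate of spread, after TMM normalization and filterByExpr (17131 genes). The quasi-likelihood test of MSC against Sham was two-sided with Benjamini-Hochberg adjusted p under 0.05. The authors used sleuth on transcripts, which the deposited gene counts do not allow. SEs were computed from the fold change and the test statistic. The script was tested on simulated counts. DESeq2 1.42.0 and limma-voom 3.58.1 were alternatives, as were other fits, Sham subsets and each mouse left out. Nothing in the sources says whether same-numbered mice were handled together. Deviations of same-numbered mice correlated by -0.10 to 0.24, against -0.39 to 0.40 for other pairs, so numbers were not used as a block. Libraries of a group correlated by 0.981 to 0.993 across genes, and none was a copy of another. The number before the dash in the labels differs between MSC, PBS and Sham, so that anything that went with it and the group cannot be told apart.

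Genes named are the 10 of the smallest p, the 10 of the largest fold change with at least 10 counts in every MSC library, all lower genes (1 is not reported here), 3 called genes (or the 2 of highest level) per list, the 6 farthest above and below in MSC mouse 4, and 6 panel genes, 106 in all. Others are named because a count or list singled them out after their values were seen. The members, lists and tests were chosen with earlier results of these data known, so no list is independent support. Gene positions are of GRCm38 (GENCODE vM21).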

Additional observations from a re-analysis of the deposited data

Results flagged for a closer look

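Among the named genes, 212 groups of 5 mice were examined for a highest or lowest mouse whose gap to the nearest other mouse, divided by the range, passed the Dixon limit of 0.71, and 29 did. By chance about 1 group in 20 does. Some named genes were chosen because MSC mouse 4 lay farthest above or below the other MSC mice in them. Cd244a, Ccr7 and C5ar1, flagged in that mouse, are among these, so the count of 29 is partly fixed by the choice of genes. That count therefore cannot be read against the share expected by chance. Values are log2 CPM with the CPM beside them. The same mice return in many genes, which are not independent of each other, and why they return was not tested.

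MSC mouse 4 was far above its group in 15 genes, namely H2-Q7 (3.20, or 9.11 CPM), H2-D1 (7.26, or 153 CPM), H2-Q6 (3.29, or 9.74 CPM), Serpina3n (6.02, or 64.7 CPM), Cd52 (2.16, or 4.41 CPM), Cybb (2.46, or 5.44 CPM), Csf3r (4.31, or 19.8 CPM), Tlr13 (2.41, or 5.27 CPM), Ly86 (3.99, or 15.8 CPM), Cyba (2.86, or 7.22 CPM), Ptpn6 (3.22, or 9.26 CPM), Ctss (6.90, or 119 CPM), C5ar1 (2.29, or 4.84 CPM), Ccr7 (0.23, or 1.12 CPM) and Cd244a (1.45, or 2.66 CPM). It was far below in Pltp (4.92, or 30.1 CPM), a phospholipid transfer protein of ependyma.

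Sham mouse 4 was far above its group in 8 genes, namely C1qa (5.32, or 39.8 CPM), Parp14 (2.75, or 6.67 CPM), Irf8 (2.85, or 7.13 CPM), Ly86 (3.20, or 9.11 CPM), Ptpn6 (2.02, or 3.98 CPM), Ctss (6.15, or 71.1 CPM), Cd68 (2.95, or 7.69 CPM) and Il10ra (2.92, or 7.53 CPM), and far below in Hba-a2 (-0.50, or 0.648 CPM) and Hbb-bs (-0.50, or 0.648 CPM). The last are globin genes, of which Hba-a2 has a near-identical copy. Single values far below their group were also found in MSC mouse 0 for Pdgfra (5.96, or 62.0 CPM), in MSC mouse 1 for Cbln2 (4.69, or 25.8 CPM) and in Sham mouse 3 for Diras2 (8.01, or 258 CPM).

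In 14 genes the difference from Sham was larger in MSC than in PBS mice, both at 3 wpi, by edgeR's test of MSC against PBS in the fit of all groups. The log2 difference was 5.03 for Nkg7, 3.99 for Cd3g, 3.01 for Igha, 2.80 for Ccl5, 2.74 for Gimap3, 2.38 for Gimap4, 2.35 for Cd3e, 2.29 for H2-Q7, 2.16 for Cd74, 2.05 for Sh2d2a, 1.92 for Cd8a, 1.84 for Cxcr6, 1.51 for H2-Q6 and 0.97 for H2-D1. The fitted value of Nkg7 rests on 1 count in the 4 PBS libraries against 58 in the 5 MSC libraries, a ratio of 49.4 with a 95% exact counting interval of 8.52 to 1985.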

How the results depend on the processing

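With only MSC and Sham in the fit, 74 genes were higher than in Sham (62 of them among the 191) and 2 lower, and 71 were higher when MSC mouse 4 was also left out. DESeq2 gave 310 higher and 19 lower, limma-voom 101 and 2, and limma-voom with sample weights 68 and 1. In the last, MSC mouse 4 had the lowest weight of all libraries, at 0.386, with a PBS library of 1 wpi close to it at 0.391. A log2 fold change of at least 1 left 78 and 0. Sham mice of week 3 alone gave 68 higher, and those of week 1 alone 106 higher and 18 lower. With tissue scores as covariates, lower genes numbered 11 (striatum), 10 (hippocampus) and 3 (choroid plexus). The week 1, hippocampus, choroid plexus and hindbrain fits and the fit without both mice 4 were added after seeing the data. Leaving out each mouse gave 68 to 300 higher and 1 to 13 lower genes, the extremes of the higher genes being without MSC mouse 4 and without Sham mouse 4. No source says whether the mouse numbers pair the mice. With the number as a replicate block 214 were higher and 8 lower, 1 of 5 mice correlating best with its own number. Against PBS, the 14 higher genes became 0 with only the 2 groups fitted, 31 with DESeq2 and 11 with the block, and 9 (without MSC mouse 4) to 28 (without MSC mouse 2) with an MSC mouse left out. The 106 genes with all MSC mice below all Sham mice became 51 with CPM without TMM and 170 to 247 with an MSC mouse left out, the last without MSC mouse 0 (203 without MSC mouse 4), settings added after seeing the data. The choroid plexus covariate, with 136 higher genes, ended 11 calls of named genes. Other settings stayed within 1.5 times of these counts of calls, and no reported direction of a named called gene turned in 1704 values, of which 327 missed the threshold. Of the uncalled genes named by the rule, Csf3r passed it, in 7 settings. The causes were not tested, apart from the fewer mice or groups that a setting holds. Genes of under about 1 CPM rest on few counts per library, so their fold changes carry wide errors.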
